A study of Populus alba x Populus glandulosa with 18 samples.

Results

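The genes described here encode enzymes that modify pectin in the plant cell wall, together with the proteins annotated as their inhibitors. They were chosen from the deposited table by their Arabidopsis-derived descriptions. A gene model was taken where its description, with case ignored, held pectin methylesterase, pectinesterase, pectin lyase-like, pectate lyase, polygalacturonase or pectin acetylesterase (as 1 word). This gave 264 of 42950 gene models. The libraries came from stems of the hybrid poplar 84K (*Populus alba* × *P. glandulosa*), either carrying *PagDET2* under the 35S promoter (*PagDET2*-OE lines) or untransformed (84K, the wild-type controls). The trees of both genotypes were 2 months old. By the study's methods, PS was the primary stem (the apex pooled with internodes 1 to 3), BA the bark side with phloem and cambium, and XY the xylem surface, the last 2 from internodes 5 to 12. The labels name these domains shoot apical meristem, cambium and xylem. Each of the 6 groups (*PagDET2*-OE and 84K in PS, BA and XY) had 3 libraries. The sampling description reads as 3 trees of each genotype. The labels do not tie a library to a tree or to a transgenic line, so that p-values measure the spread between these samples.

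Homogalacturonan, the main pectin of primary walls, is secreted with methyl and acetyl groups on its galacturonic acid units. Pectin methylesterases (PMEs) remove the methyl groups, PME inhibitors bind PMEs and block them, and pectin acetylesterases remove acetyl groups. Demethylesterified stretches can be bridged by calcium or cut by polygalacturonases and pectate lyases. Pectin is abundant in the thin walls of cambium and expanding cells and scarce in the secondary walls of wood.

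Library totals ranged from 7983668 to 12052409 counts, and a count of 0 allows up to 0.233 to 0.472 CPM in a library (3 counts, counting error only). CPM are the counts scaled to library size after TMM normalization. *DET2* (Potri.016G110600), a reductase of brassinosteroid synthesis, had 12777 to 25649 counts in the 9 *PagDET2*-OE libraries, against 46 to 81 in the 9 libraries of 84K. The labelled domains were checked in 84K against marker lists. Relative to BA, XY had higher levels of all 47 secondary-wall xylem markers tested, and PS had higher levels of 10 of 12 epidermis markers. Of 11 phloem markers, 8 were lower and 3 higher in XY than in BA. Their summed level was 1147 to 1173 CPM in XY and 1381 to 1413 CPM in BA. Cambium markers were lower in XY for 11 of 17 and higher for 2, yet their summed level was 2584 to 2670 CPM in XY and 2148 to 2223 CPM in BA. Shoot apex markers did not mark PS. Of 5 tested, 2 were higher and 3 lower than in BA, with sums of 440 to 489 CPM in PS and 647 to 677 CPM in BA. From the epidermis and shoot apex lists, 7 and 2 genes that share only a symbol with a marker were left out after the lists were seen. Replicate 3 stood apart in all 6 groups. The chi-square per degree of freedom was 2.16 to 2.49 between replicates 1 and 2 and 4.0 to 6.11 in pairs with replicate 3. The libraries were bulk tissue, in which fewer cells of a type and less RNA per cell cannot be told apart.

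By description the genes fell into 8 groups. The named PMEs were 27, PMEs of the inhibitor superfamily (longer entries without the word protein, median span 1931 bp) were 38, and inhibitor superfamily proteins (short entries, median span 681 bp) were 41. The short entries carry a description shared by inhibitors of PME and of invertase, and the files do not tell these apart. Pectin acetylesterases were 11, polygalacturonases 9, pectate lyases 6 and polygalacturonase-inhibiting proteins 4. The largest group was the 128 pectin lyase-like entries, a fold shared by polygalacturonases, lyases and PMEs. No count was found in any library for 95 of the 264 genes, among them all 7 copies of *PPME1*, a pollen PME in Arabidopsis, and both copies of *QRT1*, a PME of pollen separation in Arabidopsis. After the filter on low counts, the test took in 103 genes for PS, 94 for BA and 81 for XY (112 for at least 1 domain). The genes were clustered. Another gene of the set lay within 20000 bp for 110 of them, in 41 clusters, and 12 genes were on unplaced scaffolds. The largest cluster held 10 inhibitor and PME entries on chromosome 15 between 13979363 and 14054622 of the *P. trichocarpa* v3.1 build. Reads of near-identical neighbours can be split between copies, so that levels of single copies are uncertain.

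Together the 264 genes took 0.539 to 0.586% of all counts in PS and BA. In XY they took 0.357 to 0.359% in *PagDET2*-OE libraries and 0.328 to 0.331% in 84K. Their summed level was 4837 ± 90.4 CPM in *PagDET2*-OE lines and 4182 ± 56.1 CPM in 84K (SD, n = 3 each) in XY. In BA it was 4799 ± 72.9 CPM in *PagDET2*-OE lines and 5006 ± 58.8 CPM in 84K, and in PS 5083 ± 99.6 CPM in *PagDET2*-OE lines and 5111 ± 28.1 CPM in 84K. In CPM the 3 *PagDET2*-OE libraries lay above the 3 libraries of 84K in XY and below them in BA, and overlapped them in PS. As shares of counts the genotypes overlapped in BA (0.539 to 0.563% in *PagDET2*-OE libraries and 0.560 to 0.577% in 84K). TMM factors in XY were 0.725 to 0.758 in *PagDET2*-OE libraries and 0.773 to 0.797 in 84K. The size of every gap between summed CPM in XY therefore depends on this scaling. A few genes made up much of the level. The 10 most abundant took 50.9 to 61.4% of the sum in every group.

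**Figure D1:**
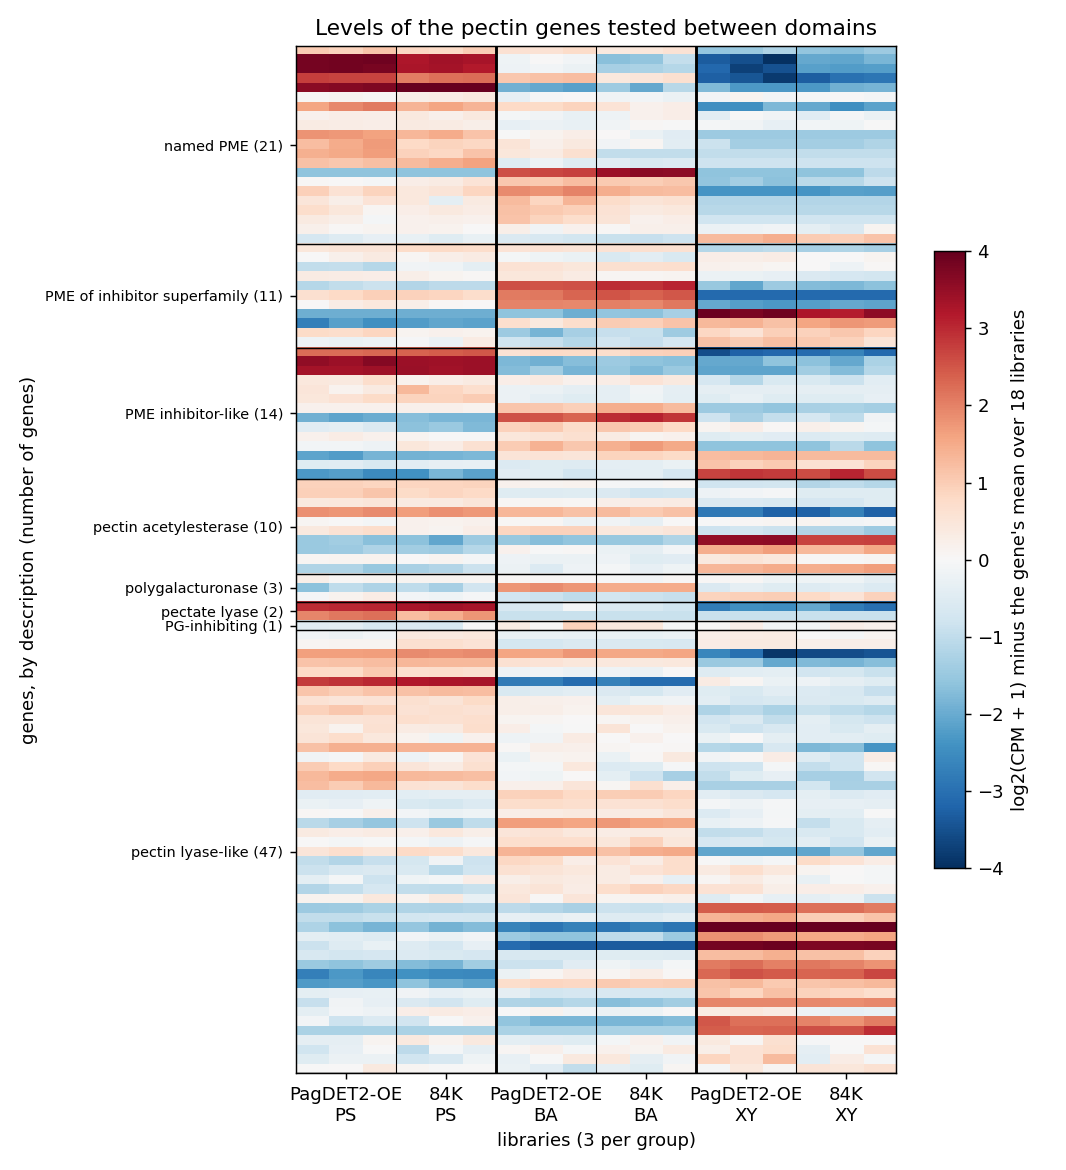
Levels of the 109 genes tested between domains, as log2(CPM + 1) minus each gene's mean over the 18 libraries (colour, red above and blue below the mean, capped at 4), with 3 libraries per column block and genes in rows by description. Domains separate the columns far more than genotypes do, and the named PMEs are mostly lowest in XY.

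Which pectin genes belong to which domain was compared in 84K. Among 109 genes tested, the highest mean level was in PS for 48, in BA for 33 and in XY for 28. DEGs were taken at 2-fold or more with an adjusted p no larger than 0.05. By that criterion 24 genes (22.0%) were higher and 36 (33.0%) lower in XY than in BA, where 16.0% of all genes tested were higher and 21.7% lower. In PS over BA, 30 (27.5%) were higher and 25 (22.9%) lower, beside 14.7% and 14.0% of all genes. In PS over XY, 46 (42.2%) were higher and 29 (26.6%) lower, beside 26.8% and 19.3%. The median log2 difference was -0.63 in XY over BA (all genes tested -0.08), 0.13 in PS over BA (all genes 0.01) and 0.53 in PS over XY (all genes 0.10). Scaling by library totals instead of TMM moved the median of all genes by -0.575 in XY over BA and by 0.58 in PS over XY. In that run no share over all genes was counted. The pectin genes then gave 21 higher and 54 lower in XY over BA, and 57 higher and 23 lower in PS over XY. All differences from XY are therefore given relative to TMM scaling.

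The named PMEs had their highest level in PS. Of 21 tested, 13 were at least 2-fold lower and 1 higher in XY than in BA, beside 21.7% and 16.0% of all genes. In PS over XY, 15 were higher and 2 lower, beside 26.8% and 19.3% of all genes. Their median log2 difference was -2.19 in XY over BA, 0.49 in PS over BA and 5.90 in PS over XY. Most of these are copies of *PME3*, a PME of vegetative organs in Arabidopsis, which has 17 entries in the table. All 14 copies tested were at least 2-fold higher in PS than in XY, beside 26.8% of all genes. Only 4 copies had enough counts in XY to be tested there between genotypes. Most of the 14 thus passed the filter on low counts through PS or BA, which left them no room to be higher in XY.

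Genotypes were compared within each domain with edgeR's quasi-likelihood test. A gene is called higher or lower where its adjusted p was no larger than 0.05, without a limit on the fold. In PS, *PagDET2*-OE lines had 17 genes (16.5% of 103) higher and 16 (15.5%) lower, beside 8.08% and 6.90% of all genes tested. DEGs were 1 higher and 1 lower, beside 0.471% and 0.534% of all genes. In BA, 16 genes (17.0% of 94) were higher and 8 (8.51%) lower, beside 6.19% and 5.34% of all genes, with 4 DEGs higher and 0 lower, beside 0.892% and 0.351%. No gene was 2-fold lower in BA at an unadjusted p under 0.05 either, and DESeq2 also called 0. In XY, 16 genes (19.75% of 81) were higher and 5 (6.17%) lower, beside 10% and 9.34% of all genes. DEGs there were 1 higher and 2 lower, beside 1.15% and 1.95%. The genes' median log2 fold change came to 0.01 for PS, 0.06 for BA and 0.11 for XY, against a median over all genes tested within 0.01 of 0 in each domain. In all, 59 of the 112 genes tested (52.7%) were called in at least 1 domain, beside 32.5% of all genes tested, and 16 (14.3%) in more than 1, beside 7.19%. Of these 16, 7 were higher wherever called, 2 were lower wherever called, and 7 were higher in one domain and lower in another. Without replicate 3 of both genotypes, 17 genes were higher and 17 lower in PS, 22 higher and 14 lower in BA, and 23 higher and 7 lower in XY. Shares over all genes were not counted in that run.

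**Figure D2:**
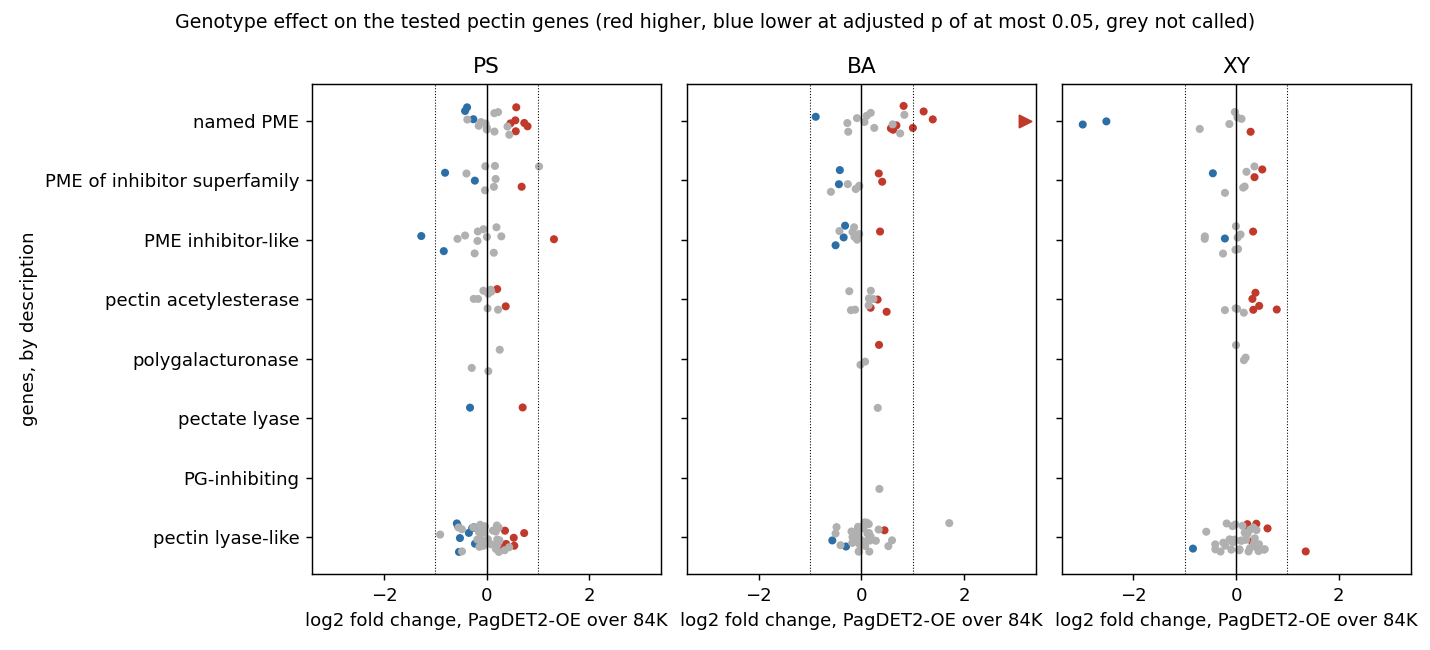
Log2 fold change of *PagDET2*-OE over 84K for every pectin gene tested (points, 103 in PS, 94 in BA, 81 in XY), by description and domain, with dotted lines at a 2-fold change. Called genes are red (higher) or blue (lower). The triangle at the edge of BA is Potri.003G002601, which had no count in 84K, so its fitted value is not to scale. Among named PMEs most called genes lie to the right in PS and BA, and the 2 farthest points in XY lie to the left.

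In PS and BA, most named PMEs that were called, like most that were tested, were copies of *PME3*. In PS, *PagDET2*-OE lines had 6 of the 14 copies tested higher and 2 lower (median log2 fold change 0.43), beside 8.08% and 6.90% of all genes. In BA, 8 of 13 were higher and 0 lower (median 0.76), beside 6.19% and 5.34% of all genes, and these included the 4 DEGs. DESeq2 called 5 higher and 0 lower there. In BA, Potri.003G002601 passed the filter on low counts only through *PagDET2*-OE libraries (58 counts, against 0 in 84K), so it could only be called higher. In XY only 4 copies had enough counts to be tested, and 2 were lower and 0 higher with either tool. These 2 passed the filter only through 84K libraries (83 and 49 counts, against 11 and 9 in *PagDET2*-OE libraries). They could only be called lower, and the filter thus limits what their direction shows. At an unadjusted p under 0.05, 0 copies were lower in BA and 0 higher in XY. The copies are not independent measurements, because they share sequence and lie in clusters.

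Potri.001G162500 and Potri.001G162600 (*PME3*) are neighbours on chromosome 1, from 13586777 to 13588762 and from 13596196 to 13598191, in a cluster of 4. In PS, Potri.001G162500 had 269, 270.5 and 282 CPM in *PagDET2*-OE libraries, against 176, 195 and 186 CPM in 84K. The genotypes did not overlap, and the log2 fold change was 0.56 (standard error 0.053, adjusted p = 4.3e-06, edgeR's quasi-likelihood test). In BA, where the gene is far less abundant, it had 15.7, 18.1 and 16.4 CPM in *PagDET2*-OE libraries, against 4.96, 5.29 and 8.84 CPM in 84K. Every *PagDET2*-OE library was above every 84K library, with a log2 fold change of 1.39 (standard error 0.19, adjusted p = 0.000559, edgeR). In XY the order of the genotypes was the opposite. The 3 *PagDET2*-OE libraries had 0.867, 0.664 and 0 CPM and the 3 libraries of 84K 3.62, 3.51 and 4.29 CPM, which is 11 against 83 counts in all. The log2 fold change was -2.99 (standard error 0.51, adjusted p = 0.000501, edgeR).

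Potri.001G162600 behaved in the same way. Its log2 fold change was 0.58 in PS (213 ± 5.45 CPM in *PagDET2*-OE lines and 143 ± 8.62 CPM in 84K, SD, n = 3 each). In BA it had 12.1, 12.9 and 11.9 CPM in *PagDET2*-OE libraries, against 4.96, 5.2 and 5.82 CPM in 84K, a log2 fold change of 1.22 (adjusted p = 7.77e-05, edgeR). In XY it had 9 counts in *PagDET2*-OE libraries, against 49 counts in 84K, a log2 fold change of -2.53 (adjusted p = 0.00167, edgeR). The neighbour Potri.001G162400, the most abundant copy, differed little between genotypes. It had 299.7 ± 22.5 CPM in *PagDET2*-OE lines and 269.8 ± 19.2 CPM in 84K in PS (SD, n = 3 each), with a log2 fold change of 0.15 ± 0.063 (standard error, adjusted p = 0.123, edgeR). In BA and XY its log2 fold changes were 0.18 and 0.11, and neither passed the test. Within this cluster of 4, then, 2 neighbours were called in each domain and the most abundant one in none.

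**Figure D3:**
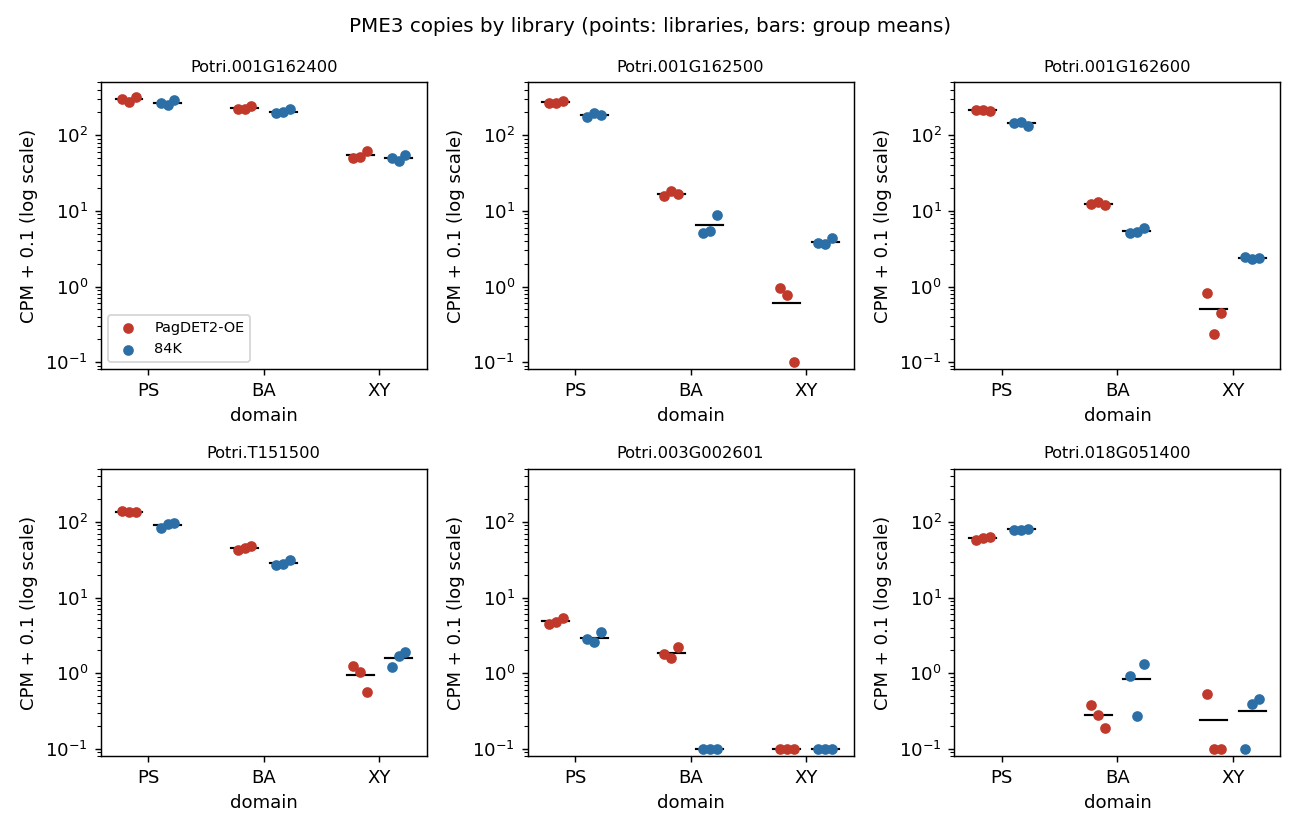
CPM of 6 *PME3* copies in each library (points, CPM + 0.1 on a log axis) with group means (bars), *PagDET2*-OE left of 84K in PS, BA and XY. Potri.001G162500 and Potri.001G162600 are higher in *PagDET2*-OE libraries in PS and BA and lower in XY, whereas Potri.018G051400 is lower in PS.

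The change of these copies differed between domains. As interaction terms over all 18 libraries, the log2 fold change of Potri.001G162500 was 4.36 lower in XY than in BA (interaction -4.36, adjusted p = 3.1e-05, edgeR) and that of Potri.001G162600 was 3.71 lower (interaction -3.71, adjusted p = 4.13e-09, edgeR). Marker genes of other cells moved in the same libraries. In XY, 3 of the 4 phloem markers tested were lower in *PagDET2*-OE lines, of which 2 copies of *SULTR1;3* (Potri.005G167300 and Potri.005G169300) had log2 fold changes of -2.54 and -2.28, and the summed level of the 17 phloem markers was 1012 to 1056 CPM in *PagDET2*-OE libraries, against 1147 to 1173 CPM in 84K. Of the 14 shoot apex markers 4 were tested there, and 1 was lower, with summed levels of 155 to 160.5 CPM in *PagDET2*-OE libraries and 159 to 172 CPM in 84K. Without a count in any library of XY were 3 copies of *NAC086* in the phloem list and 9 shoot apex markers, which included *LFY*, *CUC3* and *UFO*. The part of such cells in the lower *PME3* counts of XY was not tested.

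Other *PME3* copies were higher in the same domains. Potri.T151500, on an unplaced scaffold, had 140.2, 135 and 134 CPM in *PagDET2*-OE libraries of PS, against 83.7, 94.5 and 97.4 CPM in 84K, and 42.8, 45.2 and 48.2 CPM in BA, against 26.6, 28 and 31 CPM in 84K. The genotypes did not overlap in either domain, with log2 fold changes of 0.57 in PS and 0.68 in BA (adjusted p = 1.63e-05 and 0.000166, edgeR). Potri.003G002601, on chromosome 3 from 289010 to 290180, had 58 counts in the *PagDET2*-OE libraries of BA and 0 counts in those of 84K, which is at least 20.1-fold higher when 3 counts are allowed over the 84K group. In PS it was detected in both genotypes, with 4.38, 4.63 and 5.31 CPM in *PagDET2*-OE libraries and 2.73, 2.51 and 3.37 CPM in 84K. That call in PS (log2 fold change 0.74, adjusted p = 0.0201, edgeR) was lost without 84K replicate 1 or 2 or *PagDET2*-OE replicate 3 (adjusted p 0.0595 to 0.0943). Potri.T148200 (log2 fold change 0.62, adjusted p = 0.00321, edgeR) was also higher in BA, with 18, 16.8 and 19.2 CPM in *PagDET2*-OE libraries and 13, 11.4 and 11.2 CPM in 84K. Potri.006G256600 had 75 counts in *PagDET2*-OE libraries and 39 in 84K in BA, and its call as a DEG (log2 fold change 1.01, adjusted p = 0.0443, edgeR) was lost when any library other than *PagDET2*-OE replicate 3 was left out (adjusted p 0.0726 to 0.179). Its neighbour Potri.006G256700 had a log2 fold change of 0.83 (adjusted p = 0.0277, edgeR), lost on leaving out the same libraries (adjusted p 0.0587 to 0.113).

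Not every copy followed. Potri.018G051400, a *PME3* copy found almost only in PS, had 58.1, 61.7 and 63.3 CPM in *PagDET2*-OE libraries, against 78.6, 78.5 and 81.3 CPM in 84K. All 3 *PagDET2*-OE libraries were lower, with a log2 fold change of -0.38 (adjusted p = 0.00038, edgeR), although this call was lost in a fit of all 18 libraries (adjusted p = 0.121). Its level in 84K was 79.5 ± 1.58 CPM in PS and 0.747 ± 0.538 CPM in BA (SD, n = 3 each), a log2 difference of 6.68 between PS and BA. Potri.003G072800, the other copy that was lower in PS, had a log2 fold change of -0.42 (adjusted p = 0.0248, edgeR).

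Among PMEs with other names, *PME61* (Potri.014G149700, chromosome 14, 11473946 to 11476533) was a gene of BA. It had no count in PS in either genotype. In BA it had 17.1, 18.4 and 19.1 CPM in *PagDET2*-OE libraries, against 31.4, 36 and 34.7 CPM in 84K. The genotypes lay well apart, with a log2 fold change of -0.89 (standard error 0.09, adjusted p = 4e-05, edgeR), the reverse of the *PME3* copies in the same libraries. *PME44* (Potri.006G134500) was most abundant in XY, where it had 124, 127 and 141 CPM in *PagDET2*-OE libraries, against 104, 98.8 and 112 CPM in 84K (log2 fold change 0.28, adjusted p = 0.00605, edgeR). Of the 3 copies of *PME31*, 3 were tested in PS and in BA and 2 in XY, and none was called with edgeR or DESeq2 (at an unadjusted p under 0.05, 1 was lower, in BA). Among 2 or 3 genes, no call is near the share of all genes given above.

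The summed level of the named PMEs in PS was 1150 ± 28.6 CPM in *PagDET2*-OE lines and 937 ± 24.4 CPM in 84K (SD, n = 3 each). In BA it was 475 ± 18.7 CPM in *PagDET2*-OE lines and 414 ± 20.6 CPM in 84K, and in XY 242 ± 13.98 CPM in *PagDET2*-OE lines and 219 ± 12.4 CPM in 84K. The genotypes did not overlap in PS or BA and overlapped in XY. The 5 most abundant named PMEs in PS were copies of *PME3*. Marker genes also moved in these libraries. In PS, 8 of 14 nuclear photosynthesis genes were higher and 1 lower (sums of 2547 to 2936 CPM in *PagDET2*-OE libraries, against 2166 to 2388 CPM in 84K) and none was without counts. Of the epidermis markers in PS, 4 of 12 were higher and 1 lower (368 to 406 CPM in *PagDET2*-OE libraries, against 327 to 341 CPM in 84K). Copies of *LTP1*, *CER1*, *CER6* and *PDF2* in that list were at 0 in every PS library. Of 10 phloem markers tested in PS, 3 were lower (106 to 127 CPM in *PagDET2*-OE libraries, against 131 to 146 CPM in 84K), and 4 entries, copies of *NAC086*, were at 0 in every PS library. In BA, 5 of 12 photosynthesis genes were higher (819 to 845 CPM in *PagDET2*-OE libraries, against 714 to 759 CPM in 84K). Of 11 phloem markers in BA, 4 were higher and 2 lower (1373 to 1394 CPM in *PagDET2*-OE libraries, against 1381 to 1413 CPM in 84K). Their part in the PME levels was not tested.

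**Figure D4:**
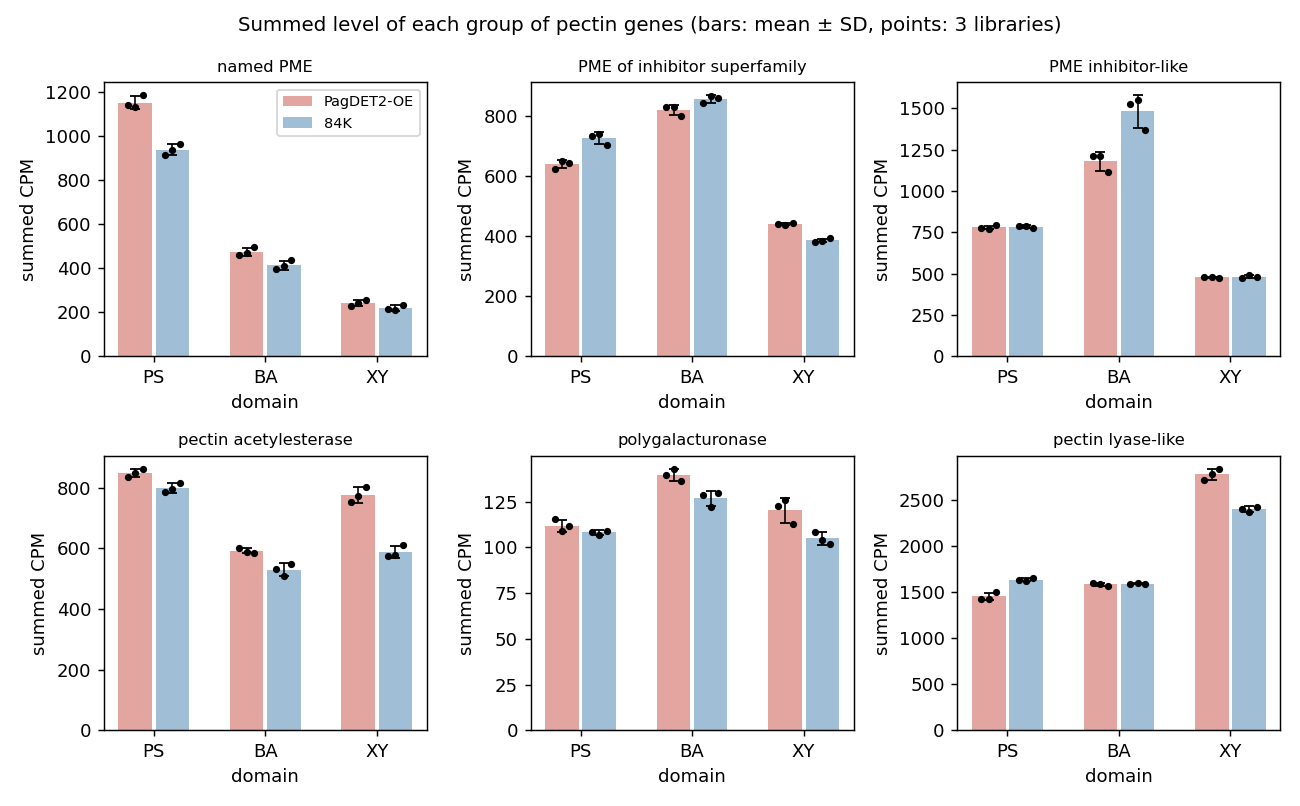
Summed CPM of 6 groups of pectin genes by domain (bars, mean ± SD of 3 libraries, points are libraries), *PagDET2*-OE left of 84K, with each panel's axis starting at 0. Named PMEs are highest in PS, inhibitor-like entries in BA and pectin lyase-like entries in XY. Pectin acetylesterases sum to 776 ± 25.6 CPM in *PagDET2*-OE lines and 588 ± 18.6 CPM in 84K in XY.

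The PMEs of the inhibitor superfamily, longer proteins with a PME domain as a rule, were led by Potri.015G013700. Its FPKM, a level per transcript length, was 204 ± 3.76 in *PagDET2*-OE lines and 242 ± 6.48 in 84K in PS (SD, n = 3 each). In CPM it had 419, 437 and 432 in *PagDET2*-OE libraries of PS, against 502, 516 and 491 in 84K. All 3 *PagDET2*-OE libraries were lower, yet the change was small (log2 fold change -0.23, adjusted p = 0.00313, edgeR). Potri.012G014500 was lower in PS by more, at 40.3, 41.7 and 36.1 CPM in *PagDET2*-OE libraries, against 73.5, 71.6 and 61.7 CPM in 84K. The groups did not overlap (log2 fold change -0.81, standard error 0.08, adjusted p = 6.92e-06, edgeR). In BA and XY its log2 fold changes were -0.11 and 0.14 and did not pass the test, and the effect differed from that in PS in both (interactions 0.68 in BA and 0.97 in XY, adjusted p = 0.00014 and 1.03e-06, edgeR).

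In all, 1 of the 10 PMEs of the inhibitor superfamily tested in PS was higher and 2 lower, 2 of 9 were higher and 2 lower in BA, and 2 of 8 were higher and 1 lower in XY. Over all genes the shares were 8.08% higher and 6.90% lower in PS, 6.19% and 5.34% in BA, and 10% and 9.34% in XY, so that 1 of 10 higher in PS is near the share of all genes. Potri.014G127000 was detected almost only in XY, with 58.4, 52.6 and 56.8 CPM in *PagDET2*-OE libraries, against 36.1, 33.2 and 45.4 CPM in 84K, without overlap (log2 fold change 0.51, adjusted p = 0.00228, edgeR). Potri.005G061500 was lower in XY and BA, at 35.2, 38.1 and 32.5 CPM in *PagDET2*-OE libraries of XY, against 43.6, 49.96 and 47.7 CPM in 84K. Its log2 fold change was -0.45 in XY and -0.44 in BA (adjusted p = 0.00259 and 0.015, edgeR), and the call in BA was lost without 84K replicate 3 or *PagDET2*-OE replicate 2 (adjusted p 0.0529 and 0.0728). Potri.006G135100 belonged to BA. Potri.013G013200 was highest in BA and also present in PS, with a log2 difference in 84K of -1.69 in PS over BA. Potri.006G135100 had 38.3, 36 and 37.2 CPM in *PagDET2*-OE libraries of BA, against 49.6, 47.7 and 53.4 CPM in 84K (log2 fold change -0.42, adjusted p = 0.00252, edgeR). Potri.013G013200 had 38.2 ± 3.71 CPM in *PagDET2*-OE lines and 46.4 ± 2.34 CPM in 84K in BA (SD, n = 3 each), a difference that missed the threshold (adjusted p = 0.0659, edgeR), and no count in any XY library.

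The short inhibitor superfamily proteins held the gene with the highest CPM of the set in BA and in PS of *PagDET2*-OE lines. In PS of 84K Potri.015G013700 was highest (9.84% of the summed CPM). In XY it was the pectin lyase-like Potri.006G139500 (12.3% in *PagDET2*-OE lines and 12% in 84K). Potri.012G127500, on chromosome 12 from 14516851 to 14517551, had an FPKM of 1486 ± 95.5 in *PagDET2*-OE lines and 1882 ± 154 in 84K in BA (SD, n = 3 each). It took 18.8% of the summed CPM of the pectin genes in BA of *PagDET2*-OE lines and 23.1% in BA of 84K. In CPM, the *PagDET2*-OE libraries of BA had 939, 919.7 and 844, against 1196, 1215 and 1055 in 84K. Every *PagDET2*-OE library was below every 84K library, with a log2 fold change of -0.34 (standard error 0.058, adjusted p = 0.0028, edgeR). In PS it did not pass the test (log2 fold change 0.01, adjusted p = 0.925, edgeR). In XY it was also lower (log2 fold change -0.22, adjusted p = 0.0205, edgeR), but that call was lost without 84K replicate 1 or 2 or *PagDET2*-OE replicate 3 (adjusted p 0.0579 to 0.111).

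In BA, 3 of the 10 inhibitor entries with enough counts were lower and 1 higher, with a median log2 fold change of -0.16 over the 10, beside 5.34% lower and 6.19% higher of all genes. Their summed level was 1180 ± 55.5 CPM in *PagDET2*-OE lines of BA and 1482 ± 97.4 CPM in 84K (SD, n = 3 each), while in PS it was 780.2 ± 11.6 CPM in *PagDET2*-OE lines and 785 ± 8.35 CPM in 84K. The lower entries in BA were Potri.012G127500, Potri.003G113700 and Potri.010G109300. Potri.003G113700, which carries the symbol *PME1* although its description is that of an inhibitor, had 43.7, 42.2 and 37.2 CPM in *PagDET2*-OE libraries, against 58.6, 62.9 and 54.5 CPM in 84K (log2 fold change -0.50, adjusted p = 0.00151, edgeR). In 84K it was found mostly in BA. Potri.010G109300, most abundant in XY, had 95.9, 98.8 and 94.3 CPM in *PagDET2*-OE libraries of BA, against 125, 123 and 116 CPM in 84K (log2 fold change -0.32, adjusted p = 0.00388, edgeR). Secondary-wall xylem markers moved in BA as well. Of the 53 listed, 32 had enough counts in BA. In *PagDET2*-OE lines 16 were lower and 2 higher, and their summed level was 926 to 989 CPM in *PagDET2*-OE libraries, against 1243 to 1348 CPM in 84K. Of that list 6 genes were at 0 in every BA library, among them copies of *CESA7* and *LAC4*. The part of xylem cells in the lower levels of genes such as Potri.010G109300 in BA was not tested.

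In PS the largest fold change of the set was in an inhibitor entry of the chromosome 15 cluster. Potri.015G128700 (14043016 to 14043724) had 11.8, 12.2 and 10.7 CPM in *PagDET2*-OE libraries, against 4.61, 5.19 and 4.12 CPM in 84K. The groups did not overlap, and the log2 fold change was 1.31 (standard error 0.15, adjusted p = 1.78e-05, edgeR). It was the only DEG of the set that was higher in PS. In BA, where it is more abundant, it had 31.7 ± 3.46 CPM in *PagDET2*-OE lines and 33.1 ± 3.42 CPM in 84K (SD, n = 3 each), and the effect was smaller than in PS (interaction -1.37, adjusted p = 9.88e-06, edgeR). A gene of the same cluster, Potri.015G128400, was the only lower DEG of PS (log2 fold change -1.27, adjusted p = 0.0422, edgeR), with 20 counts in *PagDET2*-OE libraries and 49 in 84K. Its counts in *PagDET2*-OE libraries were too few to pass the filter on low counts without 84K libraries, which limits what its direction shows. The call was lost when any library other than 84K replicate 3 was left out (adjusted p 0.0658 to 0.228). Potri.003G113600 had 57 counts in *PagDET2*-OE libraries of PS and 102 in 84K (log2 fold change -0.83, adjusted p = 0.0261, edgeR), a call lost when any library other than 84K replicate 2 was left out (adjusted p 0.0609 to 0.0764). Potri.006G137800 was found almost only in PS, at 47.4 ± 4.32 CPM in *PagDET2*-OE lines and 43 ± 0.411 CPM in 84K (SD, n = 3 each), and missed the threshold (adjusted p = 0.245, edgeR). Potri.014G044100 was an inhibitor entry of XY and differed little, at 50.01 ± 2.63 CPM in *PagDET2*-OE lines and 49.3 ± 9.09 CPM in 84K (adjusted p = 0.962, edgeR).

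Pectin acetylesterases were called in 1 direction only, among the 10 tested in PS, the 10 in BA and the 9 in XY. In PS 2 were higher, in BA 3 and in XY 5, and 0 were lower in each (edgeR). Over all genes tested, 8.08% were higher and 6.90% lower in PS, 6.19% and 5.34% in BA, and 10% and 9.34% in XY. Among 9 or 10 genes, 0 lower is therefore near the share of all genes. DESeq2 called 2, 1 and 4 higher and 0 lower. At an unadjusted p under 0.05, 0 were lower in PS, 1 in BA and 1 in XY. PS had a median log2 fold change of 0.06 over these genes, BA one of 0.16 and XY one of 0.32. Among all genes tested in XY, 10% were higher, as given above, against 55.6% of the 9 acetylesterases.

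The largest change of an acetylesterase was in a gene of XY. Potri.012G142300, on chromosome 12 from 15558558 to 15563585, had 239, 243 and 248 CPM in *PagDET2*-OE libraries of XY, against 138, 136 and 138 CPM in 84K. The groups were far apart, with a log2 fold change of 0.79 (standard error 0.051, adjusted p = 5.36e-09, edgeR). In BA it had 5.93 ± 0.456 CPM in *PagDET2*-OE lines and 7.01 ± 0.99 CPM in 84K (SD, n = 3 each), and in PS 6.4 ± 0.687 CPM in *PagDET2*-OE lines and 5.5 ± 1.34 CPM in 84K. In 84K the gene was higher in XY than in BA by a log2 difference of 4.32. Its genotype effect in XY exceeded that in BA (interaction 1.07, adjusted p = 2.15e-05, edgeR).

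Secondary-wall xylem markers were higher in the same libraries. Of 46 tested in XY, *PagDET2*-OE lines had 29 higher and 0 lower (also 0 lower at an unadjusted p under 0.05 and with DESeq2), with a median log2 fold change of 0.25, and the summed level of the list was 40854 to 45562 CPM in *PagDET2*-OE libraries, against 34383 to 36724 CPM in 84K. Of the list 3 genes were at 0 in every XY library, copies of *CESA7*, *LAC17* and *COBL4*. The part of a larger share of wall-forming xylem cells in the higher levels of XY genes was not tested.

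Other acetylesterases were higher too, some of them most abundant outside XY. Potri.010G004400 was higher in all 3 domains. In BA it had 81, 84.7 and 84.9 CPM in *PagDET2*-OE libraries, against 59.2, 58.1 and 62.7 CPM in 84K, without overlap. PS gave a log2 fold change of 0.37, BA one of 0.49 and XY one of 0.45 (adjusted p = 0.00439, 0.000259 and 0.0166, edgeR), and the call in XY was lost without 84K replicate 3 or *PagDET2*-OE replicate 1 or 2 (adjusted p 0.0541 to 0.0701). Potri.003G046200, the acetylesterase with the highest mean FPKM over 18 libraries, had an FPKM of 281 ± 6.59 in *PagDET2*-OE lines and 278 ± 3.61 in 84K in PS (SD, n = 3 each). It did not pass the test there (adjusted p = 0.711, edgeR). In XY it had 122, 127 and 129 CPM in *PagDET2*-OE libraries, against 94.3, 106 and 96.2 CPM in 84K, a log2 fold change of 0.32 (adjusted p = 0.00209, edgeR). Its change in BA (0.18, adjusted p = 0.0307, edgeR) was lost without 84K replicate 1 or 2 or *PagDET2*-OE replicate 1 or 2 (adjusted p 0.0866 to 0.181). Potri.005G001500 was higher in PS and XY, with log2 fold changes of 0.21 and 0.34 (adjusted p = 0.0205 and 0.00311, edgeR), the call in PS being lost without 84K replicate 1 or *PagDET2*-OE replicate 3 (adjusted p 0.114 and 0.0565). Potri.013G000900 was higher in XY (0.38, adjusted p = 0.00428, edgeR) and Potri.004G234100 in BA (0.32, adjusted p = 0.0225, edgeR). Potri.004G233900, next to it in number, was almost absent from XY, at 0.229 ± 0.206 CPM in *PagDET2*-OE lines and 0.146 ± 0.253 CPM in 84K (SD, n = 3 each).

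**Figure D5:**
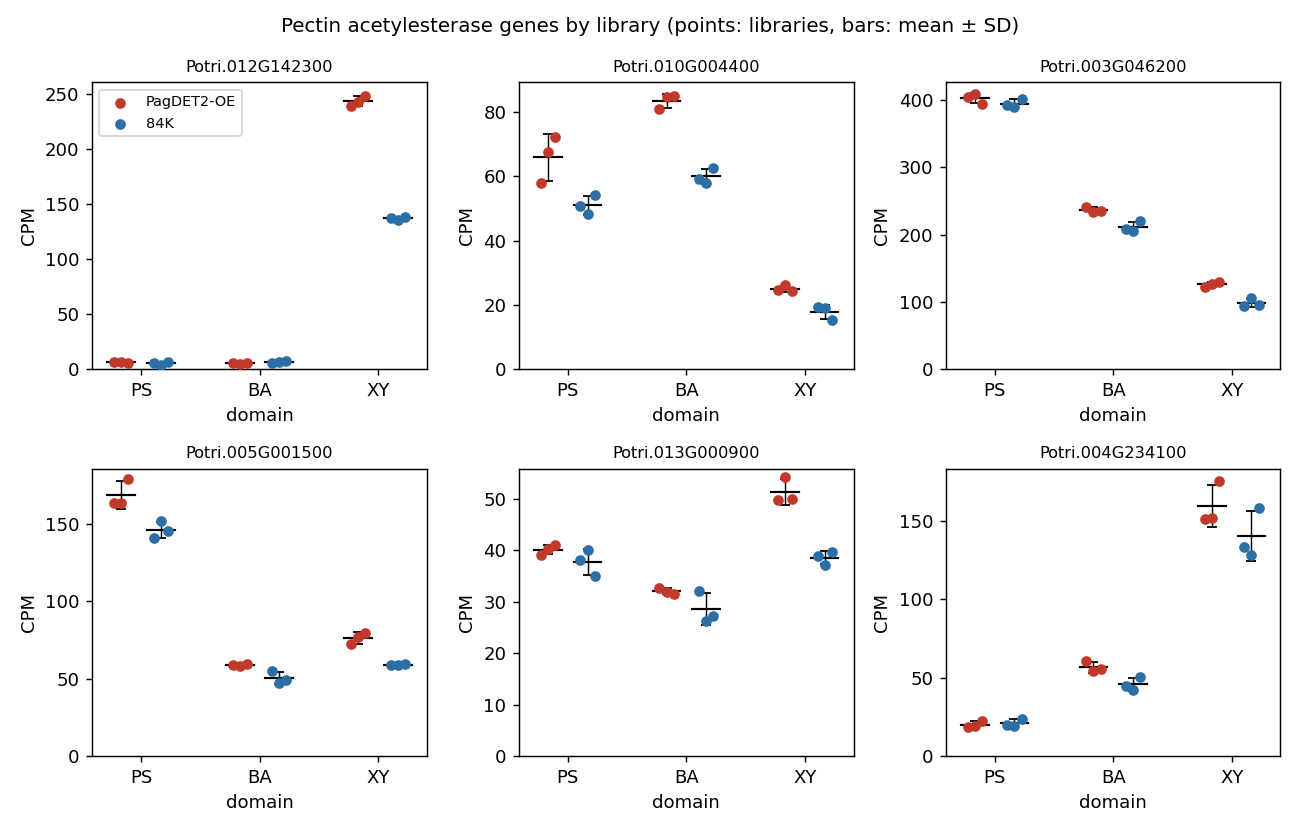
CPM of 6 pectin acetylesterase genes in each library (points) with mean ± SD (bars, n = 3), *PagDET2*-OE left of 84K in PS, BA and XY, each axis starting at 0. In XY, Potri.012G142300 has 239 to 248 CPM in *PagDET2*-OE libraries, and every 84K library is below 139 CPM.

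Of the 9 genes described as polygalacturonases, 3 were tested in each domain, and 1 was called, higher in BA. Over all genes, 6.19% were higher and 5.34% lower in BA, 8.08% and 6.90% in PS, and 10% and 9.34% in XY. Among 3 genes, 0 calls in PS and in XY is near these shares. The *PG2* copy Potri.008G190000 was nearly even across domains, at 90.7 ± 6.02 CPM in *PagDET2*-OE lines and 88.6 ± 0.697 CPM in 84K in PS (SD, n = 3 each), and was not called in any domain. The other *PG2* copy tested, Potri.012G079200, was higher in XY than in BA in 84K (log2 difference 1.77, adjusted p = 3.16e-10, edgeR). It was not called between genotypes either. *ADPG2* (Potri.016G054800), a polygalacturonase of organ separation in Arabidopsis, was highest in BA. There it had 45.3, 49.6 and 45.7 CPM in *PagDET2*-OE libraries, against 37.6, 36.9 and 37.4 CPM in 84K, without overlap (log2 fold change 0.35, adjusted p = 0.00728, edgeR). In a fit of all 18 libraries this call was just lost (adjusted p = 0.0551, edgeR).

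Pectate lyases were genes of PS. Of 6 entries 2 were tested, both far less abundant outside PS. Potri.008G182200 had 92.3, 96 and 98.1 CPM in *PagDET2*-OE libraries of PS, against 119, 122 and 117 CPM in 84K. The *PagDET2*-OE libraries were all lower (log2 fold change -0.32, adjusted p = 0.000801, edgeR), and the call was lost in a fit of all 18 libraries (adjusted p = 0.0738). Potri.004G124100 went the other way, at 6.21, 7.03 and 7.5 CPM in *PagDET2*-OE libraries and 3.38, 4.03 and 5.34 CPM in 84K (log2 fold change 0.70, adjusted p = 0.0171, edgeR), but was lost without 84K replicate 1 or 2 or *PagDET2*-OE replicate 2 (adjusted p 0.0563 to 0.0935). It had no count in any library of BA or XY. The 4 polygalacturonase-inhibiting proteins, which in other plants bind polygalacturonases of fungi, reached at most 2.65 CPM in any library.

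The pectin lyase-like entries split by domain. Of 47 tested, 14 were at least 2-fold higher and 9 lower in XY than in BA, beside 16.0% and 21.7% of all genes. Their summed level in XY was 2777 ± 56.9 CPM in *PagDET2*-OE lines and 2398 ± 31.3 CPM in 84K (SD, n = 3 each). In BA the sums were 1584 ± 14.02 CPM in *PagDET2*-OE lines and 1591 ± 2.95 CPM in 84K, and in PS 1452 ± 42.04 CPM in *PagDET2*-OE lines and 1632 ± 16.1 CPM in 84K. In XY all *PagDET2*-OE libraries lay above those of 84K, and in PS all lay below.

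Several single genes followed that pattern. Potri.015G087800 had 154, 145 and 156 CPM in *PagDET2*-OE libraries of PS, against 224, 217 and 229 CPM in 84K, and 199, 207 and 214 CPM in XY, against 169, 161 and 184 CPM in 84K. In PS its libraries did not overlap (log2 fold change -0.56, adjusted p = 4.96e-06, edgeR), and in XY it was higher (log2 fold change 0.24, adjusted p = 0.00714, edgeR). The call in XY was lost without 84K replicate 2 (adjusted p = 0.0561, edgeR). The effect in XY was 0.82 above that in PS (adjusted p = 1.09e-07, edgeR) and the effect in BA 0.55 above it (adjusted p = 4.35e-05). Potri.003G175900, the entry with the highest mean FPKM over 18 libraries, had 478, 509 and 549 CPM in *PagDET2*-OE libraries of XY, against 371, 361 and 408 CPM in 84K. Its log2 fold change was 0.40 in XY (adjusted p = 5.71e-05, edgeR) and -0.25 in PS (adjusted p = 0.00704, edgeR). Potri.012G091500 moved likewise, with log2 fold changes of 0.61 in XY and -0.54 in PS (adjusted p = 0.00104 and 0.00183, edgeR). In PS, 6 of 45 entries were higher and 8 lower, and in XY 7 of 43 were higher and 1 lower. In BA 1 of 41 was higher and 2 lower. Over all genes 8.08% were higher and 6.90% lower in PS, 10% and 9.34% in XY, and 6.19% and 5.34% in BA, so that the 2 lower entries in BA are near the share of all genes. One of these 2 was a copy of *QRT3* (Potri.003G074600), a polygalacturonase of pollen separation in Arabidopsis, and this copy was highest in XY. The other copy, Potri.001G159900, was lower in XY than in BA in 84K (log2 difference -0.63, adjusted p = 0.034, edgeR). In BA Potri.003G074600 had 7.17, 7.21 and 9.96 CPM in *PagDET2*-OE libraries, against 12.3, 11 and 13.1 CPM in 84K (log2 fold change -0.56, adjusted p = 0.0291, edgeR), a call lost when any library other than *PagDET2*-OE replicate 3 was left out (adjusted p 0.0539 to 0.115).

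Other entries marked a domain and changed little. Potri.001G463000 and Potri.011G159000 were found mainly in XY. Potri.001G463000 had 175 ± 15 CPM in *PagDET2*-OE lines and 163 ± 6.79 CPM in 84K in XY (SD, n = 3 each), and at most 0.189 CPM in any BA library. Potri.011G159000 had 146 ± 3.89 CPM in *PagDET2*-OE lines and 136 ± 2.75 CPM in 84K in XY. Neither passed the genotype test in XY (adjusted p = 0.488 and 0.479, edgeR). *QRT2* (Potri.006G052700), another polygalacturonase of pollen separation in Arabidopsis, had 12, 11 and 11.2 CPM in *PagDET2*-OE libraries of XY, against 13.4, 13 and 17.6 CPM in 84K, and no count in PS or BA. Potri.014G117100 was a gene of PS, at 57.8, 62.2 and 67.5 CPM in *PagDET2*-OE libraries and 76.7, 80.04 and 81.5 CPM in 84K. It was lower in every *PagDET2*-OE library of PS (log2 fold change -0.34, adjusted p = 0.00183, edgeR), a call lost in a fit of all 18 libraries (adjusted p = 0.0989). The DEG of this group in XY was Potri.009G169100, with 83 counts in *PagDET2*-OE libraries and 29 in 84K (log2 fold change 1.36, adjusted p = 0.0163, edgeR). Its counts in 84K were too few to pass the filter on low counts without *PagDET2*-OE libraries, which limits what its direction shows. The call was lost without 84K replicate 1 or *PagDET2*-OE replicate 3 (adjusted p 0.083 and 0.0718).

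The genotype effect was compared between domains over all 113 genes that passed the filter in 18 libraries. It differed between XY and BA for 20 genes (17.7%), beside 13.3% of all genes tested, between BA and PS for 18 (15.9%), beside 9.27%, and between XY and PS for 22 (19.5%), beside 10.1%. In XY minus BA, 13 of the 20 differences were positive, in BA minus PS 12 of 18, and in XY minus PS 15 of 22. The split by direction over all genes was not counted, so these numbers are not read as a trait of the pectin genes. With 9 libraries and, as described, 3 trees per genotype, a tree may have given several domains, whereas the fit treats all 18 libraries as independent. With the replicate number as a block, 23, 21 and 23 genes differed in these contrasts, and the shares over all genes were not counted.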

How the data were processed

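RNA-seq libraries of 3 stem domains and 2 genotypes were analysed from 1 deposited table of 42950 *P. trichocarpa* v3.1 gene models. The authors aligned reads with HISAT2 2.0.4 and counted fragments per gene with StringTie 1.3.0, and the table holds whole-number counts per gene that the authors did not scale. The authors' FPKM values, deposited beside the counts, are TMM-normalized and scaled to transcript length, and are printed as levels of abundant genes, without a test. Reads of a hybrid aligned to another species may count some genes less fully.

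Counts were tested with edgeR 4.0.16 (robust quasi-likelihood, TMM, Benjamini-Hochberg over all genes tested) in R 4.3.3, after filterByExpr (minimum count 10, total 15). Genotypes were compared within each domain (6 libraries), domains within the 9 libraries of 84K, and interactions over all 18. Fold changes are *PagDET2*-OE over 84K. Library totals were 7983668 to 12052409 counts, which allows 0.233 to 0.472 CPM at a count of 0 on TMM-scaled sizes. Replicate libraries differed by more than counting noise (chi-square per degree of freedom 2.16 to 2.49 between replicates 1 and 2 and 4.0 to 6.11 in pairs with replicate 3), so none was counted as a duplicate. The scripts were tested on simulated data. Alternatives were DESeq2 1.42.0, library totals, no filter, all 18 libraries in 1 fit, a replicate block and leaving out libraries.

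The genes and all marker lists were chosen with earlier results of these data known. Genes named were, in each genotype comparison, the 5 largest called changes in each direction with a mean of at least 1 CPM, in each domain contrast the 4 largest in each direction with at least 5 CPM, the 2 with the highest mean FPKM in each description group, the 3 strongest interactions per contrast, and *DET2*. Genes outside this rule were named after their values were seen. No sequences are shown.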

Additional observations from a re-analysis of the deposited data

Results flagged for a closer look

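The 3 strongest interactions per contrast, by p, fell on 6 genes (edgeR's quasi-likelihood test over 18 libraries, adjusted over all genes). They are a selection. In the whole set the genotype effect differed for 20 genes between XY and BA, 18 between BA and PS and 22 between XY and PS. Values are differences of log2 fold changes of *PagDET2*-OE over 84K. The *PME3* copy Potri.001G162500 differed by -4.36 between XY and BA (adjusted p = 3.1e-05). Its neighbour Potri.001G162600 differed by -3.71 between XY and BA (adjusted p = 4.13e-09) and by -3.1 between XY and PS (adjusted p = 1.11e-07). Both had few counts in XY, 11 and 9 over the 3 *PagDET2*-OE libraries, against 83 and 49 in 84K.

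Potri.012G014500, a PME of the inhibitor superfamily, differed by 0.68 between BA and PS (adjusted p = 0.00014, edgeR) and by 0.97 between XY and PS (adjusted p = 1.03e-06). The acetylesterase Potri.012G142300 differed by 1.07 between XY and BA (adjusted p = 2.15e-05, edgeR). The pectin lyase-like gene Potri.015G087800 differed by 0.55 between BA and PS (adjusted p = 4.35e-05, edgeR) and by 0.82 between XY and PS (adjusted p = 1.09e-07). The inhibitor entry Potri.015G128700 differed by -1.37 between BA and PS (adjusted p = 9.88e-06, edgeR). Groups of 3 libraries were not checked gene by gene for outlying samples. Over all genes, replicate 3 differed most from the others in every group (chi-square per degree of freedom 4.0 to 6.11, against 2.16 to 2.49 between replicates 1 and 2).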

How the results depend on the processing

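No fold change of a named gene called in the main fit changed sign in the alternative runs. Runs in which such a gene was filtered out or had no adjusted p were not compared. Counts of genes called have no sign to compare, and shares over all genes were not counted in these runs. Of genes called at the adjusted p threshold in PS, DESeq2 called 10 higher and 10 lower and a fit of all 18 libraries 11 higher and 9 lower, both with 0 DEGs lower. In BA, DESeq2 called 9 higher. In XY, DEGs higher were 0 with DESeq2, 2 without the filter and 2 in the fit of all 18 libraries, and genes lower were 8 with library totals and 8 in that fit. With libraries left out, genes higher in PS ranged from 10 to 17 (10 without 84K replicate 1, 11 without 84K replicate 2 or *PagDET2*-OE replicate 3), and genes lower from 10 to 17 (10 without 84K replicate 1 or *PagDET2*-OE replicate 2). DEGs higher in PS ranged from 1 to 2 (2 without 84K replicate 3 or without both replicates 3). DEGs lower ranged from 0 to 2, with 0 without 84K replicate 1 or 2 or any one of the 3 *PagDET2*-OE replicates, and 2 without both replicates 3. In BA, genes higher ranged from 10 to 22 (10 without 84K replicate 2 or *PagDET2*-OE replicate 1) and genes lower from 5 to 14 (5 without *PagDET2*-OE replicate 2, 14 without both replicates 3). In XY, DEGs higher ranged from 0 to 2 (0 without 84K replicate 1 or *PagDET2*-OE replicate 3, 2 without 84K replicate 2) and genes lower from 3 to 7 (3 without 84K replicate 1 or 2). The cause of these shifts was not tested. Deviations of same-numbered libraries correlated by -0.0084 to 0.130, and those of differently numbered libraries by -0.103 to 0.085. In every comparison replicate 3 correlated positively with the other group's replicate 3 (0.0566 to 0.130) and negatively with its replicates 1 and 2 (-0.103 to -0.0193). The main fits did not take the numbers as pairs and leave this shared deviation of replicate 3 unmodelled. Its source was not tested. With the replicate number as a block, 21 genes were higher and 18 lower in PS, 21 and 11 in BA, and 19 and 5 in XY, and in BA every library correlated best with its own number. For interactions, library totals (added after seeing the data) gave 14 interactions between XY and BA in place of 20. Among values for single named genes, 1157 kept their side of the threshold and 85 lost it. Calls of genes with 60 counts or fewer in a genotype group rest on few reads, and reads shared by near-identical copies cannot be assigned.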

Other observations

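Other genes of pectin metabolism were read from lists of 49 synthesis genes and 40 side-chain genes. In XY, 10 of 43 synthesis genes tested were higher in *PagDET2*-OE lines and 1 was lower (median log2 fold change 0.09, edgeR), while 2 of 46 were higher and 2 lower in PS and the same numbers in BA. The higher genes of XY included *GAE6* (Potri.017G059100, 0.79) and *GAE1* (Potri.018G100400, 0.66), which make the galacturonic acid precursor, and *GAUT12* (Potri.011G132600, 0.56), a glycosyltransferase of xylem walls in Arabidopsis. In BA another *GAUT12* copy, Potri.001G416800, was lower (-0.63). Of the side-chain genes, which include beta-galactosidases, 6 of 28 were higher and 1 lower in XY, 5 of 28 were higher and 2 lower in BA, and 2 of 24 were higher and 7 lower in PS. The percentages over all genes tested are those given for the same comparisons in the report.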
